A study of Mus musculus with 16 samples.

Results

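The genes described here were 10 genes of conventional type 2 dendritic cells (cDC2) and of the Notch pathway, taken as a list of symbols: Sirpa, Cd209a, Clec10a, Mgl2, Clec4a4, Irf4, Notch1, Notch2, Notch4 and Dtx1. Each symbol matched 1 row of a table of 55421 mouse genes, and all 10 passed the filter on low counts. RNA sequencing had been done on sub-capsular sinus macrophages (SSMs) and medullary sinus macrophages (MSMs) sorted from tumor-draining lymph nodes (tdLNs) and non-draining lymph nodes (ndLNs). The 4 groups held 2 libraries each, and every library was made from a pool of 2 mice and read on 2 sequencing lanes, which were summed. Pool 1 and pool 2 below follow the numbers in the library titles, and 1 title without a number was taken as pool 1.

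All mice, including those that gave the ndLNs, were C57B/6 males that carried MOC2, a transplantable mouse squamous cell carcinoma line. MOC2 cells, 500000 per mouse, had been placed intradermally in the flank close to the inguinal node, and nodes were taken 2 weeks later. A pool held 2 tdLNs or 6 ndLNs, the latter from the opposite side (inguinal, axillary and brachial). No node came from a tumor-free mouse, so ndLN means a node far from the tumor and not a node of a healthy animal. SSMs were sorted as CD11b+ CD169+ CD11c- cells with low side scatter, and MSMs as CD11b+ CD169+ CD11c+ cells with high side scatter, after dead cells and cells with CD3, B220 or Ly6G had been gated out. CD11c, used in the gate, is also a surface protein of dendritic cells.

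Conventional dendritic cells take up antigen and show it to T cells. Their type 2 lineage, which depends on the transcription factor IRF4, carries SIRPA and a set of C-type lectins that bind sugars on pathogens and on self proteins. Notch receptors are cut after they bind Delta-like or Jagged ligands on a neighbouring cell, and the freed inner part joins RBPJ and Mastermind proteins in the nucleus to switch on genes of the Hes and Hey families. Notch signaling also shapes dendritic cells, and in the mouse spleen NOTCH2 is needed for one branch of cDC2.

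Promoter windows could be shown for part of the list. The RefSeq table on GRCm38.p6, which gives 250 bases before and 50 bases after a gene's start, matched 7 of the 10 genes. Sirpa, Clec10a and Clec4a4 had no entry. Shown here are the windows of the 4 matched genes whose difference between SSMs and MSMs in ndLNs was called in every one of the 9 alternative fits. They lie at chr8:3748935-3749234 on the minus strand (Cd209a), chr11:70130107-70130406 on the plus strand (Mgl2), chr17:34564045-34564344 on the plus strand (Notch4) and chr5:120711620-120711919 on the minus strand (Dtx1). Each is written 5′ to 3′ on the gene's strand, with the letters of a searched motif in capitals.
Cd209a: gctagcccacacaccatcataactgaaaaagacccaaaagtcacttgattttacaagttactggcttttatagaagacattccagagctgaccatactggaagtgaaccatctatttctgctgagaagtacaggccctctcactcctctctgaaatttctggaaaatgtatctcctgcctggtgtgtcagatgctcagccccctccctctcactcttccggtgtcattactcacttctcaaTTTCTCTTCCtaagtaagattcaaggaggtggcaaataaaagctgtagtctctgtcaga
Mgl2: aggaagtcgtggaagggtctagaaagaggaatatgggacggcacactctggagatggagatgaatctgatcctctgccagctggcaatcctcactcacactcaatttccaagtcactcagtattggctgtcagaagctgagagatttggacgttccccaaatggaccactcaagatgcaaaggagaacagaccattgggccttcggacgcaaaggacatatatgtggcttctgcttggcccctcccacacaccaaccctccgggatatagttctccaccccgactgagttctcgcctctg
Notch4: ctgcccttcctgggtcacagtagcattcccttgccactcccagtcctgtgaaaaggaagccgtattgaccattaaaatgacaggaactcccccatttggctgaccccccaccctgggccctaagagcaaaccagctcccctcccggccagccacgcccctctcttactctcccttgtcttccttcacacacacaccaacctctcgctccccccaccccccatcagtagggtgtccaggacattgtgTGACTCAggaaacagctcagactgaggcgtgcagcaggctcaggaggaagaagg
Dtx1: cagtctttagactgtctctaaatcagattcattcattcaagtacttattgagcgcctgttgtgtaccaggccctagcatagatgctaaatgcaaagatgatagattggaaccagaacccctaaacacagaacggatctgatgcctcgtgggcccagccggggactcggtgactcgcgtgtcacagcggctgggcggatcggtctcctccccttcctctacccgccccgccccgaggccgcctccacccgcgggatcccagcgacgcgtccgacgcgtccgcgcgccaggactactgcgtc

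Both strands of the 7 windows were searched for 3 motifs. The ETS-IRF composite motif, the kind of site at which IRF4 binds with PU.1, was found in the Cd209a window, on the opposite strand at positions 242 to 251 counted from its 5′ end, and 2.72% of all 32851 promoter windows held it. The AP-1 motif (TGANTCA) was found in the Notch4 window at positions 247 to 253 (it reads alike on both strands), and 7.81% of all windows held it. The core letters of the RBPJ site (TGGGAA) were in 25.6% of all windows and in none of the 7. The Mgl2, Dtx1, Irf4, Notch1 and Notch2 windows held none of the 3 motifs. A match gives letters in a window, and neither binding nor its absence was measured.

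The libraries held between 42972328 and 48130352 counts, and the values below are normalized counts, that is counts scaled by library size and composition to the depth of 1 lane. Differences are log2 fold changes with their standard errors (SE) from edgeR's quasi-likelihood test, fitted to all 21085 genes that passed the filter. A gene was called at an adjusted p-value under 0.01 (Benjamini-Hochberg adjustment) and a mean normalized count over 100, which 9996 genes exceeded. The p-values rest on the spread between libraries that was left after group and pool were fitted. That spread was estimated over all 8 libraries together, with 2 per group, and not within the compared groups alone.

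Before the comparisons, the sorted cells were checked against marker lists. Siglec1, the gene of the gating marker CD169, was at 343 and 192 normalized counts in SSMs from ndLNs, 1588 and 1341 in SSMs from tdLNs, 18 and 36.9 in MSMs from ndLNs, and 135 and 128 in MSMs from tdLNs. It was called higher in SSMs than in MSMs in ndLNs (log2 fold change 3.22, edgeR adjusted p = 0.00115) and in tdLNs (3.47, edgeR adjusted p = 2.75e-04). Although MSMs were sorted as CD169+, they thus held little Siglec1 RNA.

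MSM libraries carried more RNA of the dendritic cell lists. The 8 dendritic cell lineage genes summed to between 1401993 and 1887748 normalized counts in MSMs. The sums were 194913 to 221003 in SSMs from ndLNs and 664418 to 767152 in SSMs from tdLNs. Cd74 and H2-Ab1 made up most of these sums, with means of 992164 and 670862 in MSMs from ndLNs. In ndLNs 6 of the 8 were called lower in SSMs, against 12.8% of all genes over the mean count. In tdLNs all 8 were, against 7.44%. Both counts include Itgax (-2.34 and -1.35), the gene of CD11c. The subsets were sorted by CD11c, so the direction of Itgax follows from the gate and is no separate sign of a difference. Not called in ndLNs were Zbtb46 (log2 fold change -0.59, edgeR adjusted p = 0.155) and Ccr7 (-0.12, edgeR adjusted p = 0.696). The 8 genes of type 1 conventional dendritic cells (cDC1) summed to between 101839 and 125826 in MSMs and between 20525 and 24158 in SSMs. Of these 8, 7 were called lower in SSMs in ndLNs and 8 in tdLNs, against 12.8% and 7.44% of all genes over the mean count. Clec9a, a cDC1 receptor for dead cells, was at 3000 to 4595 in MSMs and at 18.3 to 47.1 in SSMs.

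SSM libraries carried more of the T cell and monocyte genes. The 11 T cell genes summed to between 52301 and 57448 in SSMs from ndLNs, 23078 to 26511 in SSMs from tdLNs, 15377 to 18668 in MSMs from ndLNs and 11161 to 12098 in MSMs from tdLNs. In ndLNs 10 of them were called higher in SSMs, against 12.7% of all genes over the mean count. The 1 called lower, against 12.8%, was Cd8a, which some dendritic cells carry. Cd8a made up most of each MSM sum, at 8083 to 13714, and was at 227 to 584 in SSMs. The MSM sums therefore say little about the other T cell genes. Between nodes in MSMs the median log2 fold change of the 11 genes was -2.08, beside 0.01 over all genes tested. There edgeR's test called 0 of them, against 0.05% of all genes over the mean count, and DESeq2's Wald test 9, against 5.03%. The 9 B cell genes summed to between 4906 and 6769 in SSMs and between 7393 and 33857 in MSMs. Ighm made up most of these sums, at 4124 to 5852 in SSMs and 6474 to 33088 in MSMs. Cd79b had the opposite order in both nodes, with means of 280.0 in SSMs and 146 in MSMs from ndLNs, and 506 and 179 from tdLNs. Of the 4 B cell genes over the mean count, edgeR's test called 0 in ndLNs, against 25.5% of all such genes. In tdLNs it called 1, lower in SSMs, against 7.44%. The unadjusted p-value of edgeR's test was under 0.05 for 4 of the 4 in ndLNs and for 3 in tdLNs. DESeq2's Wald test called 1 of the 4 in ndLNs, with 3690 genes in all, and 3 in tdLNs, with 3026 in all. The 6 monocyte genes summed to between 27405 and 78359 in SSMs and between 6161 and 7763 in MSMs. The 10 macrophage genes summed to between 137059 and 211077 in SSMs from ndLNs, 360850 to 522566 in SSMs from tdLNs and 106398 to 120430 in MSMs. Lyz2 made up most of each sum, with means of 147131 in SSMs and 97838 in MSMs from ndLNs. In ndLNs 5 of the 10 were called higher in SSMs (background 12.7%) and 2 lower (background 12.8%). The lower ones were Cd68, with means of 3917 in SSMs and 8054 in MSMs, and Mertk, with 6.73 and 73.8. In tdLNs 6 were called higher (background 10.9%) and 0 lower. Of these marker genes, none of the T cell, cDC1, monocyte, macrophage or dendritic cell lineage genes was at 0 in any library. In bulk RNA of sorted cells, a larger share of one cell type and more RNA of a gene per cell cannot be told apart.

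**Figure D1:**
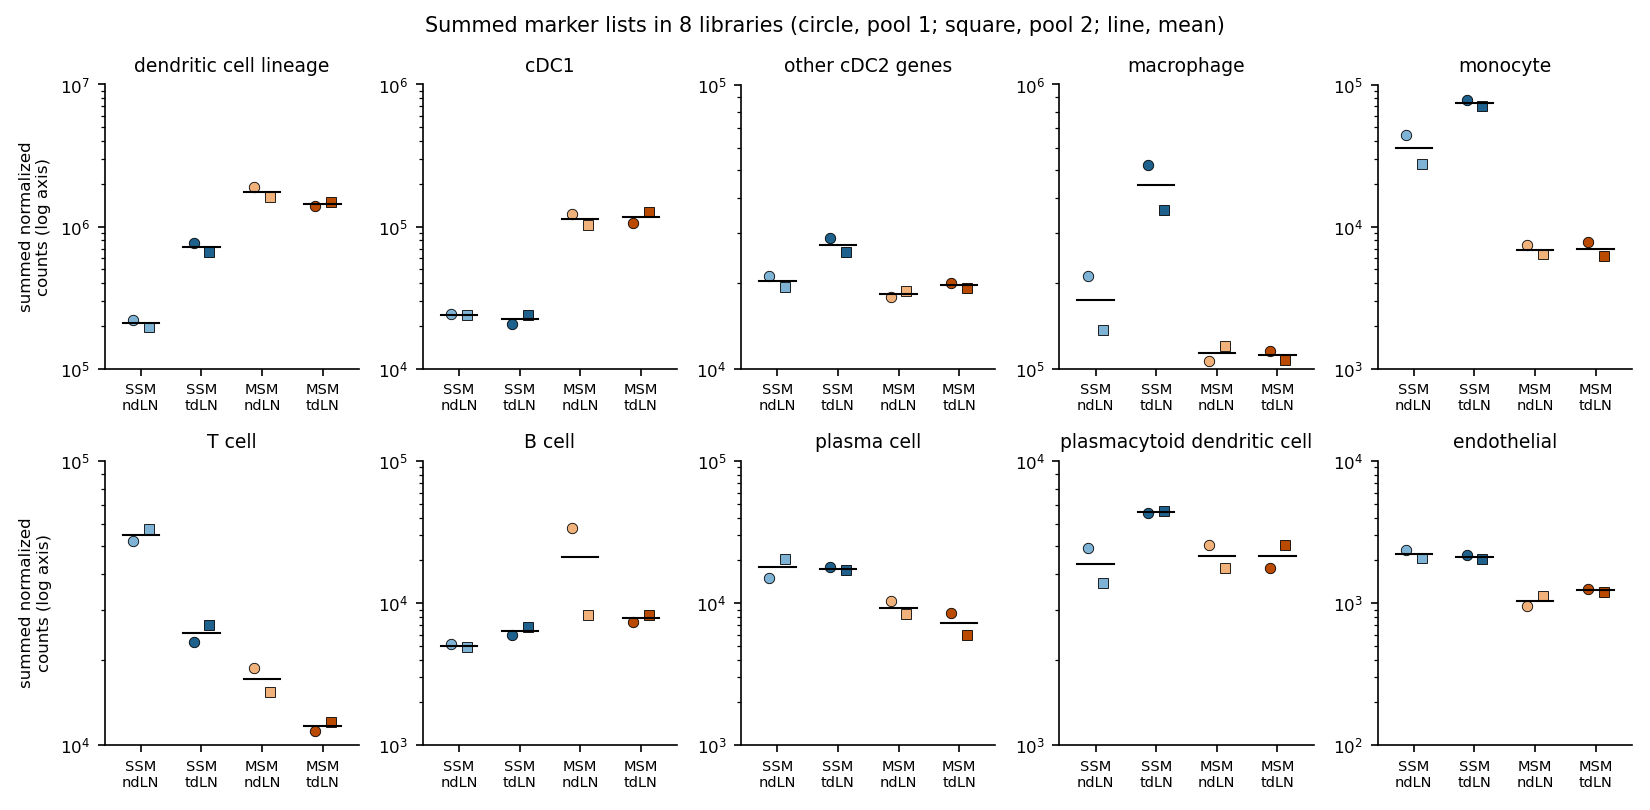
Summed normalized counts (log axis) of 10 marker lists in the 8 libraries; each panel is a list, circles are pool 1, squares are pool 2 and lines are the means of 2 libraries. Dendritic cell lineage and cDC1 sums are higher in all 4 MSM libraries than in all 4 SSM libraries, and monocyte and T cell sums are higher in all 4 SSM libraries.

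The first comparison, SSMs against MSMs in ndLNs, asked how the subsets differ away from the tumor. Among the cDC2 lectins, Cd209a and Mgl2 were lower in SSMs by about an order of magnitude, and among the Notch genes, Notch4 was nearly confined to MSMs while Notch1 and Dtx1 were higher in SSMs. Of the 10 genes, 5 were called, against 25.5% of all genes over the mean count. Among them 2 were higher in SSMs (background 12.7%) and 3 were lower (background 12.8%). In 9 of the 10 the libraries of the groups did not overlap, against 72.5% of all genes. The median log2 fold change of the 10 genes was -1.06, beside -0.06 over all genes over the mean count.

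Cd209a (ENSMUSG00000031494, chr8:3743397-3748984 on GRCm38, minus strand) encodes a mouse relative of the human lectin DC-SIGN. It was at 459.7 and 325 normalized counts in SSMs from ndLNs, 1220 and 2113 in SSMs from tdLNs, 4094 and 3721 in MSMs from ndLNs, and 7313 and 4049 in MSMs from tdLNs. All MSM libraries lay above all SSM libraries, and both tdLN libraries of the SSMs lay above both of their ndLN libraries. In ndLNs SSMs were lower by a log2 fold change of -3.32 (SE 0.376, edgeR adjusted p = 6.83e-04), a 10-fold difference. The call was lost without either SSM library from ndLNs (adjusted p = 0.0102 and 0.0134) or the MSM library of pool 1 from ndLNs (adjusted p = 0.0108), with log2 fold changes of -3.54, -3.13 and -3.35. In tdLNs the difference was -1.72 (SE 0.348, edgeR adjusted p = 0.0133) and missed the threshold.

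Mgl2 (ENSMUSG00000040950, chr11:70130329-70137550, plus strand) encodes the lectin CD301b, which binds galactose and N-acetylgalactosamine and marks dermal cDC2. It was at 251 and 194 normalized counts in SSMs from ndLNs, 1592 and 2846 in SSMs from tdLNs, 2290 and 1634 in MSMs from ndLNs, and 3468 and 2657 in MSMs from tdLNs. The SSM libraries from ndLNs stood below the other 6, which lay close together, so that SSMs and MSMs overlapped in tdLNs. In ndLNs SSMs were lower by -3.13 (SE 0.354, edgeR adjusted p = 6.82e-04), a difference of 8.77 times. This call too was lost without either SSM library from ndLNs (adjusted p = 0.0107 and 0.0130) or without the MSM library of pool 1 from ndLNs (adjusted p = 0.0110), with log2 fold changes between -3.32 and -2.84. In tdLNs the difference was -0.45 (SE 0.308, edgeR adjusted p = 0.405), with a 95% interval from -1.17 to 0.27.

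The other cDC2 genes of the list were not called in ndLNs by edgeR's test, while DESeq2's Wald test called Clec4a4 (adjusted p = 0.00686) and Irf4 (adjusted p = 6.08e-04) lower in SSMs. Clec10a (ENSMUSG00000000318, chr11:70156197-70170834, plus strand), the neighbour and paralog of Mgl2 that encodes CD301a, was at 583 and 478 in SSMs and 926 and 731 in MSMs from ndLNs (log2 fold change -0.64, SE 0.217, edgeR adjusted p = 0.0721). Clec4a4 (ENSMUSG00000059639, chr6:122990367-123024105, plus strand), which encodes the inhibitory lectin DCIR2 of splenic cDC2, was at 31.3 and 30.7 in SSMs and at 75 and 179.8 in MSMs from ndLNs (-2.05, SE 0.677, edgeR adjusted p = 0.0675). The MSM libraries of both genes lay above the SSM libraries.

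Irf4 (ENSMUSG00000021356, chr13:30749226-30766976, plus strand), the transcription factor of the lineage, was at 438 and 494 in SSMs and at 1060 and 1582 in MSMs from ndLNs (-1.48, SE 0.357, edgeR adjusted p = 0.0210). Its values were 390.3 and 903 in SSMs and 1272 and 904 in MSMs from tdLNs, where the higher SSM library and the lower MSM library all but met (-0.83, SE 0.358, edgeR adjusted p = 0.182). IRF4 is also used by activated lymphocytes and plasma cells. Sirpa (ENSMUSG00000037902, chr2:129592835-129632228, plus strand), the receptor for the "do not eat me" protein CD47, was at 8336 and 6642 in SSMs and 5215 and 6393 in MSMs from ndLNs (0.34, SE 0.208, edgeR adjusted p = 0.287).

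**Figure D2:**
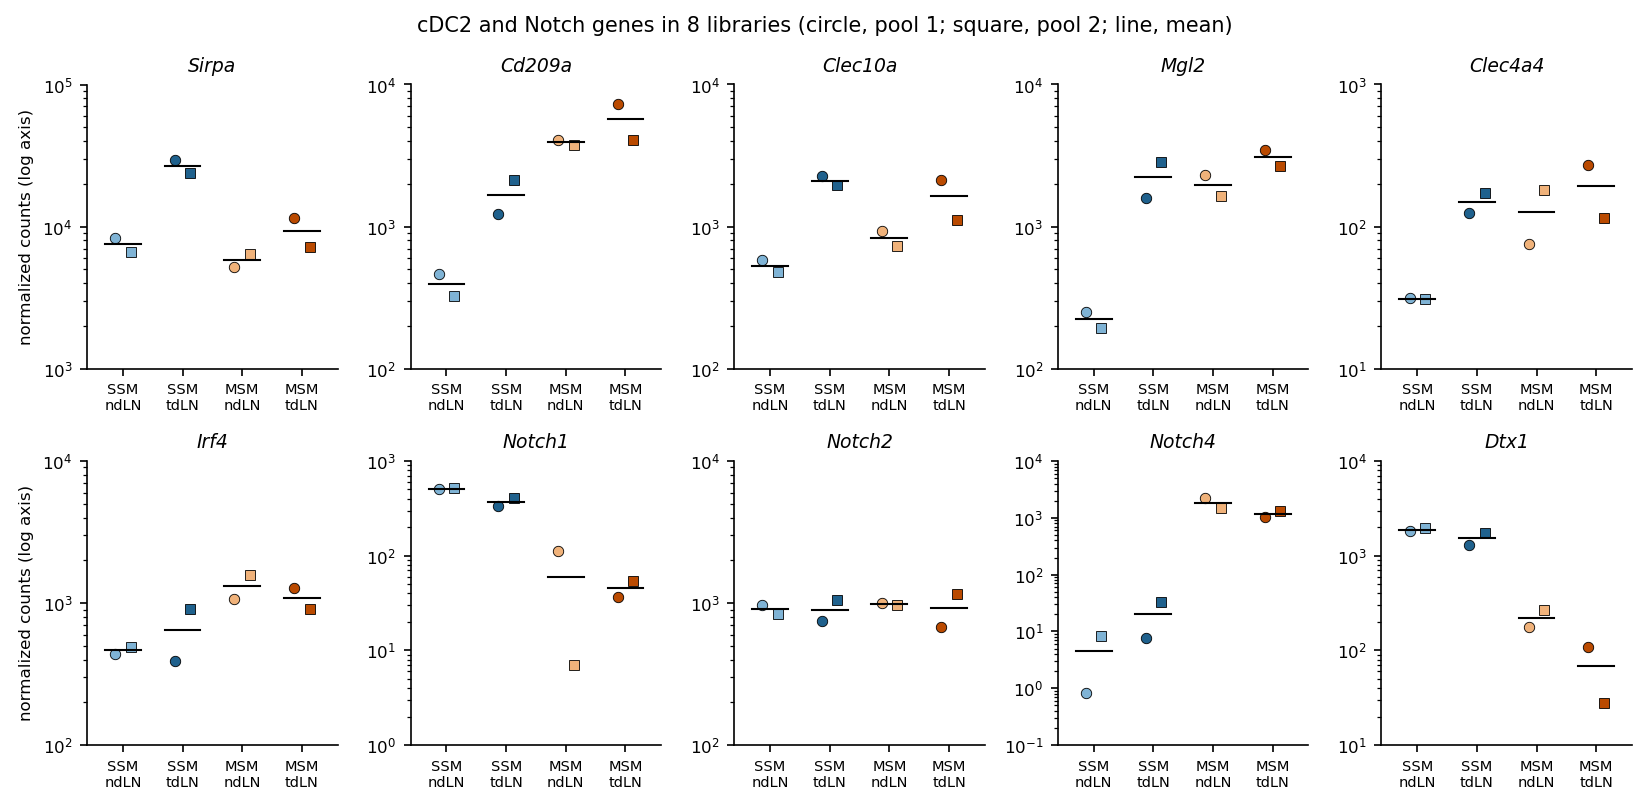
Normalized counts (log axis) of the 10 genes in the 8 libraries; circles are pool 1, squares are pool 2 and lines are the means of 2 libraries. Notch4 is at 33.3 or less in the 4 SSM libraries and at 1021 or more in the 4 MSM libraries, Mgl2 is at 251 or less in the SSM libraries from ndLNs and at 1592 or more in the others, and Notch2 lies between 673 and 1162 throughout.

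Among the Notch receptors, Notch4 (ENSMUSG00000015468, chr17:34564268-34588503, plus strand) separated the subsets most widely of the 10 genes in the main fit. It is best known as the Notch receptor of blood vessel endothelium. It was at 0.834 and 8.25 normalized counts in SSMs from ndLNs and 7.62 and 33.3 in SSMs from tdLNs, against 2213 and 1462 in MSMs from ndLNs and 1021 and 1316 in MSMs from tdLNs. Before scaling, the SSM values were 2, 18, 15 and 64 counts, so the size of the difference rests on few reads in SSMs, while the MSM libraries held 1859 to 3809 counts. SSMs were lower by -8.70 in ndLNs (SE 0.603, edgeR adjusted p = 5.24e-05) and by -5.84 in tdLNs (SE 0.501, edgeR adjusted p = 2.19e-04). Both calls were kept in all 9 other fits and in all 8 fits that left out a library, with log2 fold changes from -11.02 to -7.76 in ndLNs and from -7.29 to -5.10 in tdLNs.

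The endothelial genes were low or mixed. Over 8 tested genes of a list of 9 they summed to between 2049 and 2381 normalized counts in SSMs and between 948 and 1265 in MSMs, and Pecam1, which leukocytes also carry, made up much of the sum (1065 to 1688 in SSMs and 539 to 963 in MSMs). Cdh5, the vascular cadherin, was at 16.2 or less in every library, with means of 2.35 in SSMs and 14.5 in MSMs from ndLNs, and Tek, the angiopoietin receptor, was at 0 in 6 libraries and at 13.9 and 24.7 in the MSM libraries from ndLNs. Stab2 had the other order, with means of 348 in SSMs and 8.68 in MSMs from ndLNs, and was called higher in SSMs there. Kdr had means of 138 in SSMs and 136 in MSMs from ndLNs. In tdLNs its means were 776 in SSMs and 477 in MSMs, and within SSMs it was called higher in tdLNs. Emcn had 2 counts in all libraries together and was not tested. The dendritic cell lineage and cDC1 sums were higher in the MSM libraries that carried Notch4. The part of these cells, and of endothelial cells, in the difference was not tested.

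Notch1 (ENSMUSG00000026923, chr2:26457903-26516663, minus strand), the receptor that commits precursors to the T cell lineage, had the opposite order. It was at 505 and 519 normalized counts in SSMs from ndLNs, 331 and 409 in SSMs from tdLNs, 113 and 7.07 in MSMs from ndLNs, and 36.8 and 53.4 in MSMs from tdLNs. All SSM libraries lay above all MSM libraries, and the MSM libraries from ndLNs were far apart. In ndLNs SSMs were higher by 3.18 (SE 0.628, edgeR adjusted p = 0.00898), and in tdLNs by 3.02 (SE 0.665, edgeR adjusted p = 0.0192), which missed the threshold.

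The Notch1 call in ndLNs was fragile. It was kept in 1 of the 8 fits that left out a library, the one without the MSM library of pool 1 from ndLNs, where the log2 fold change was 6.28. In the other 7 the adjusted p-values lay between 0.0108 and 0.0489, with log2 fold changes from 2.08 to 3.32. It was also lost with DESeq2's Wald test (adjusted p = 0.0175), with no filter on low counts (0.0109) and with the ndLN libraries alone (0.0536). The genes 0610009E02Rik and Gm13568 overlap exons of Notch1 on the other strand. Since the strand setting of the counting is not given in the sources used here, reads of the overlap, 9.11% of the 50-base windows of Notch1, cannot be assigned to a strand.

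Dtx1 (ENSMUSG00000029603, chr5:120680202-120711927, minus strand) encodes Deltex, a ubiquitin ligase that binds Notch receptors and is itself a Notch target in lymphocytes. It was at 1809 and 1965 normalized counts in SSMs from ndLNs, 1304 and 1739 in SSMs from tdLNs, 177 and 266 in MSMs from ndLNs, and 108 and 27.9 in MSMs from tdLNs. All 4 SSM libraries lay at 1304 or more and all 4 MSM libraries at 266 or less. SSMs were higher by 3.09 in ndLNs (SE 0.383, edgeR adjusted p = 0.00104) and by 4.50 in tdLNs (SE 0.450, edgeR adjusted p = 5.70e-04). The tdLN call was kept in every fit, and the ndLN call was lost without the MSM library of pool 1 (2.80, adjusted p = 0.0295) or of pool 2 (3.44, adjusted p = 0.0180) from ndLNs. The T cell genes were higher in the same SSM libraries, as given above, and their part in the values of Notch1 and Dtx1 was not tested.

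Notch2 (ENSMUSG00000027878, chr3:98013527-98150361, plus strand), the receptor used by splenic cDC2, was at 972 and 842 normalized counts in SSMs from ndLNs, 744 and 1045 in SSMs from tdLNs, 1006 and 971 in MSMs from ndLNs, and 673 and 1162 in MSMs from tdLNs. The groups overlapped in all 4 comparisons. The log2 fold changes lay between -0.13 and -0.03, and the 95% intervals reached from -0.73 to 0.57 over the 4 comparisons. Differences within these intervals are compatible with the values of 2 libraries per group. Gm42820 overlaps Notch2 on the same strand and shares 3.76% of its 50-base windows.

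In the second comparison, SSMs against MSMs in tdLNs, the Notch4 and Dtx1 differences given above were called again, and Sirpa was added. Sirpa was at 29404 and 23833 normalized counts in SSMs and at 11428 and 7162 in MSMs, with no overlap (log2 fold change 1.53, SE 0.211, edgeR adjusted p = 0.00231). That call was lost without either SSM library from tdLNs (adjusted p = 0.0365 and 0.0275) or without the MSM library of pool 2 from tdLNs (adjusted p = 0.0318), with log2 fold changes of 1.50, 1.56 and 1.27.

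Of the 10 genes, 3 were called in tdLNs, against 18.3% of all genes over the mean count, with 2 higher (background 10.9%) and 1 lower (background 7.44%). Without the pool as a block in the fit 5 were called, against 20.2% of all genes, since Cd209a (-1.77, adjusted p = 0.00618) and Notch1 (3.02, adjusted p = 0.00976) then passed. The groups did not overlap in 6 of the 10, against 72.1% of all genes. The median log2 fold change was -0.20, beside 0.01 over all genes over the mean count. Clec10a (0.42, 95% interval -0.05 to 0.90) and Clec4a4 (-0.36, interval -1.56 to 0.83) overlapped between the subsets in tdLNs, as Mgl2 did.

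**Figure D3:**
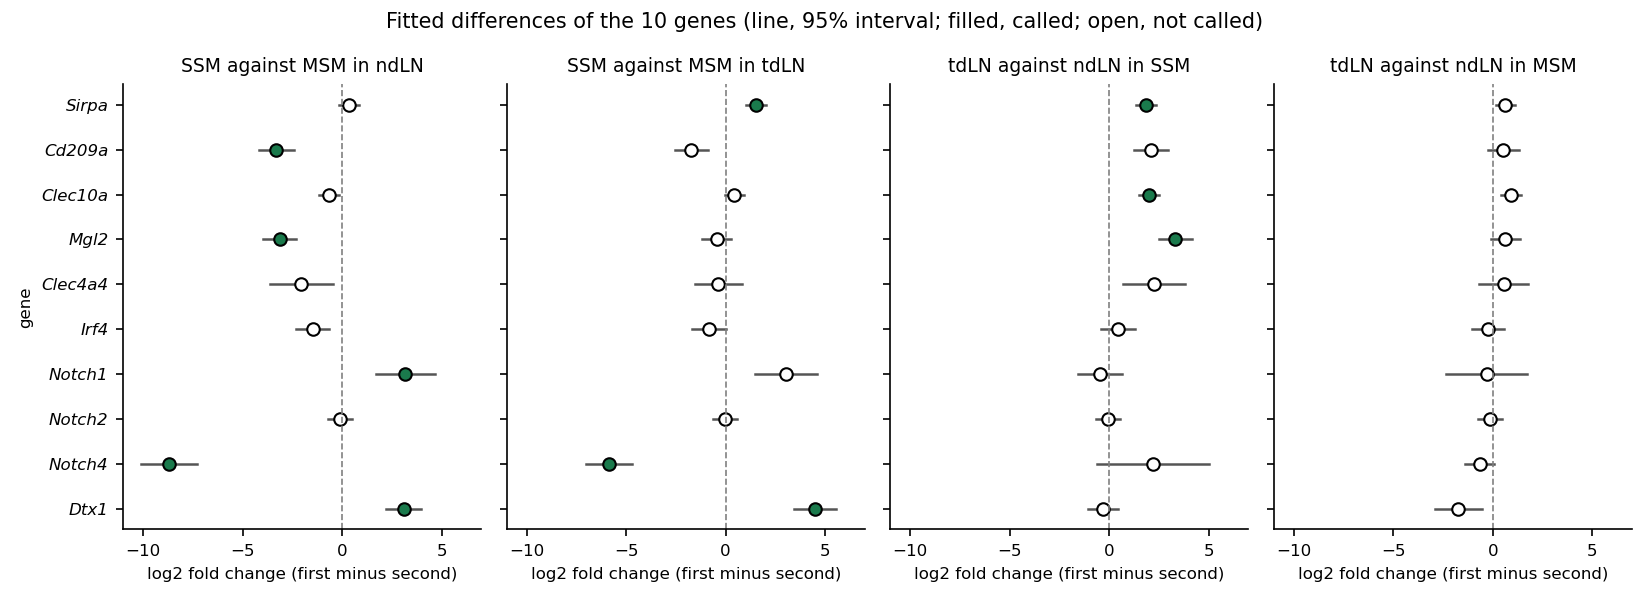
Log2 fold changes of the 10 genes (horizontal axis) in 4 comparisons, with lines for the 95% intervals, filled points for called genes and open points for genes not called. The subset differences of Notch4 (-8.70 and -5.84) are the widest, and the 3 genes called between nodes in SSMs, Sirpa, Clec10a and Mgl2, are all higher in tdLNs.

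The third comparison, tdLNs against ndLNs within SSMs, asked what differed in SSMs near the tumor. Here 3 surface genes of cDC2 rose, Mgl2 by 10 times, Clec10a by 3.99 times and Sirpa by 3.56 times, and no gene of the 10 was called lower. The 3 called genes stood against 6.4% of all genes over the mean count, of which 4.19% were called higher and 2.21% lower. The groups did not overlap in 7 of the 10, 5 of them higher and 2 lower in tdLNs, against 67.6% of all genes. The median log2 fold change was 1.91, beside 0.05 over all genes over the mean count. The SSM libraries from ndLNs enter this comparison and the first, so the differences in both draw on the same values.

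Sirpa rose from 8336 and 6642 to 29404 and 23833 normalized counts (log2 fold change 1.83, SE 0.213, edgeR adjusted p = 0.00323). Clec10a rose from 583 and 478 to 2262 and 1950 (2.00, SE 0.215, edgeR adjusted p = 0.00259). Mgl2 rose from 251 and 194 to 1592 and 2846 (3.33, SE 0.357, edgeR adjusted p = 0.00259). For each gene the lowest tdLN library was more than 2 times the highest ndLN library.

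These calls rested on the full set of libraries. In a fit of the 4 SSM libraries alone the adjusted p-values were 0.0297, 0.0297 and 0.0311 for Sirpa, Clec10a and Mgl2, and 0 of all genes were called. Leaving out 1 SSM library raised them to between 0.0245 and 0.0595 for Sirpa and between 0.0211 and 0.0479 for Clec10a. For Mgl2 they were between 0.0212 and 0.0398, except that without the tdLN library of pool 1 the gene was called, with a log2 fold change of 3.88. The log2 fold changes in these fits were between 1.78 and 1.88 for Sirpa, between 1.83 and 2.13 for Clec10a and between 2.64 and 3.88 for Mgl2.

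Cd209a and Clec4a4 had differences of like size that edgeR's test did not call. Cd209a went from 459.7 and 325 to 1220 and 2113 normalized counts (2.12, SE 0.370, edgeR adjusted p = 0.0142), and Clec4a4 from 31.3 and 30.7 to 124 and 172 (2.25, SE 0.659, edgeR adjusted p = 0.0803). The libraries of both genes did not overlap between nodes. DESeq2's Wald test called both (adjusted p = 4.93e-08 and 0.00412), and Cd209a was called in 6 of the 9 other fits. Irf4 overlapped between the nodes (0.42, 95% interval -0.43 to 1.28). Notch1 (-0.46, interval -1.59 to 0.66) and Dtx1 (-0.32, interval -1.08 to 0.45) were somewhat lower in both tdLN libraries, and Notch4 overlapped (2.20, interval -0.60 to 5.00).

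The marker sums of the SSMs differed between the nodes as well. In tdLNs 6 of 10 macrophage genes, 4 of 8 dendritic cell lineage genes and 1 of 6 monocyte genes were called higher. The share over all genes over the mean count was 4.19%. Of 11 T cell genes 3 were called lower, against 2.21% of all genes. The dendritic cell lineage genes did not move as a whole. H2-Ab1 (2.17), Cd74 (2.01), Kmo (3.27) and Dpp4 (1.09) rose. Of the 8 fits that left out a library, 6, 5 and 7 kept the calls of H2-Ab1, Cd74 and Kmo, and 0 kept that of Dpp4. All of these calls were lost in the fit of the SSM libraries alone. In contrast, Zbtb46 (-1.64, edgeR adjusted p = 0.0117) and Ccr7 (-1.05, edgeR adjusted p = 0.0148) were lower in both tdLN libraries and were called by DESeq2's Wald test, and Flt3 was at 0.10. Of the 8 cDC1 genes edgeR's test called 0, against 6.4% of all genes over the mean count. There were 5 at an unadjusted p-value under 0.05 and 4 called by DESeq2's Wald test. The cDC1 sums were 23835 and 24158 in ndLNs and 20525 and 24009 in tdLNs. Sirpa is also found on macrophages and monocytes, and Mgl2 and Clec10a on some macrophages. The part of these cells in the 3 calls was not tested.

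In the fourth comparison, tdLNs against ndLNs within MSMs, 0 of the 10 genes were called by edgeR's quasi-likelihood test, against 0.05% of all genes over the mean count. At an unadjusted p-value under 0.05 there were 3, against 18.2% of all genes. These were Sirpa (log2 fold change 0.64), Clec10a (0.93) and Dtx1 (-1.73). DESeq2's Wald test called 2, Clec10a (0.90, adjusted p = 0.00448) and Dtx1 (-1.79, adjusted p = 0.00945), against 5.03% of all genes. The libraries did not overlap in 5 of the 10, with Sirpa, Clec10a and Mgl2 higher and Notch4 and Dtx1 lower in tdLNs, against 49.8% of all genes. The median log2 fold change was 0.19, beside 0.01.

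Whether the node difference itself differed between SSMs and MSMs was tested by the interaction of subset and node. By edgeR's quasi-likelihood test 0 of the 10 genes were called, against 0.08% of all genes over the mean count. At an unadjusted p-value under 0.05 there were 4, Sirpa (1.19), Cd209a (1.60), Clec10a (1.06) and Mgl2 (2.68), all with the larger value in SSMs, against 20.8% of all genes. DESeq2's Wald test called 2, Sirpa (1.17, adjusted p = 0.00839) and Mgl2 (2.66, adjusted p = 5.70e-07), against 7.06% of all genes. Mgl2 had the smallest adjusted p of the 10 in the edgeR fit (0.0519). By the edgeR test, the rise of the cDC2 genes in SSMs was therefore not shown to differ from the MSM values. The median of the 10 interaction values was 1.30, beside 0.08 over all genes over the mean count.

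Compared per kilobase of exon, which allows levels of different genes to be set side by side, the order of the genes differed between the groups. In SSMs from ndLNs Sirpa led with 1525 normalized counts per kb, followed by Dtx1 with 358, Cd209a with 248 and Clec10a with 183. Mgl2 (106), Irf4 (95) and Notch2 (84.1) came next, and in this stretch each gene overlapped its neighbour. In SSMs from tdLNs Sirpa stood at 5420, and Mgl2 (1060), Cd209a (1053) and Clec10a (726) followed without separating from their neighbours, ahead of Dtx1 (289).

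MSMs had Cd209a first, at 2468 per kb in ndLNs and 3589 in tdLNs. Sirpa (1182 and 1893) and Mgl2 (937 and 1463) followed and overlapped each other in both nodes. Notch4, last in both SSM groups at 0.563 and 2.54 per kb, was at 228 and 145 in MSMs, above Notch2 at 91.7 and 85.1. In MSMs from ndLNs Clec10a (286), Irf4 (269.5), Notch4 and Clec4a4 (164) formed a run in which neighbours overlapped. Notch1 was last in MSMs, at 4.21 and 3.17 per kb, against 36 and 26 in SSMs.

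The neighbouring paralogs Mgl2 and Clec10a were in different proportion in the groups. The ratio of Mgl2 to Clec10a per kb was 0.597 and 0.563 in SSMs from ndLNs, 0.974 and 2.02 in SSMs from tdLNs, 3.42 and 3.09 in MSMs from ndLNs and 2.24 and 3.29 in MSMs from tdLNs. All MSM libraries lay above all SSM libraries. Of the 50-base windows of Mgl2, 13.1% also occur in other genes, Clec10a among them, and of those of Clec10a 9.02%, so the split of reads between the paralogs is uncertain to that extent. Likewise 15.7% of the windows of Clec4a4 occur in Clec4a2.

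Other lectin and SIRP genes of the same families were counted beside these genes. Of 17 paralogs and neighbours, 13 were over the mean count. Between nodes in SSMs 7 were called higher in tdLNs, against 4.19% of all genes over the mean count, and 0 lower, against 2.21%. The 7 were Clec4a2 (2.87), Clec4a3 (2.10), Clec4b1 (2.87), Clec4n (2.60), Sirpb1a (2.04), Sirpb1b (1.96) and Sirpb1c (2.24). The median log2 fold change was 1.97 over the 17 tested, beside -0.04 over all genes tested. The family did not move as a whole. Cd209f (-2.26) and Cd209g (-2.15), relatives of Cd209a under the mean count, were lower in both tdLN libraries. They were singled out after their values were seen. Clec4n encodes Dectin-2, a receptor for fungal mannans. All 7 calls were lost in the fit of the 4 SSM libraries alone and each was lost in at least 4 of the 8 fits that left out a library, among them, for all 7, those without the SSM library of pool 1 or of pool 2 from tdLNs (adjusted p up to 0.117).

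Between subsets, Cd209d, a relative of Cd209a, was lower in SSMs in ndLNs (-3.36) and tdLNs (-2.14). These calls were lost in 3 and 6 of the 8 fits that left out a library (adjusted p up to 0.0137 and 0.0734). Clec4a3, Clec4e, the receptor Mincle, and Sirpb1c were higher in SSMs in ndLNs (2.18, 2.99 and 1.78), so that the family split in direction. In tdLNs 7 were called higher in SSMs, against 10.9% of all genes over the mean count, and Cd209d lower, against 7.44%. The 7 were Clec4a1 (2.19), Clec4a2 (2.46), Clec4a3 (2.41), Clec4d (2.63), Clec4e (4.23), Sirpb1b (1.76) and Sirpb1c (2.52). Of these Clec4e alone was called in all 8 fits that left out a library. Clec4d was called in 2 of them, Clec4a1, Clec4a2 and Sirpb1b in 4 each, Clec4a3 in 5 and Sirpb1c in 6, and each of these 6 was lost without the MSM library of pool 2 from tdLNs, among others (adjusted p up to 0.0804). Cd47, the ligand of SIRPA, was not called by edgeR's test or DESeq2's Wald test in the 5 comparisons, with log2 fold changes between -0.44 and 0.44, and its unadjusted p-value was under 0.05 in 2 of them.

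The other 8 genes linked to cDC2 were split in direction. In ndLNs 4 were called higher in SSMs, against 12.7% of all genes over the mean count, and 1 lower, against 12.8%. The higher ones were Itgam (2.56), Cx3cr1 (2.28), Zeb2 (1.27) and Tbx21 (2.02), and the lower one was the inhibitory lectin Clec12a (-1.94). Esam, an adhesion protein of the Notch-dependent cDC2 of the spleen, was at 0.834 and 33 normalized counts in SSMs and at 129 and 149.5 in MSMs from ndLNs, singled out after its values were seen (-3.11, edgeR adjusted p = 0.0106, not called, but called by DESeq2's Wald test). The first 4 were also called higher in SSMs in tdLNs, against 10.9% of all genes over the mean count. Of the 8 fits that left out a library, 7 and 6 kept the ndLN calls of Cx3cr1 and Zeb2. Their tdLN calls were kept in 5 and 6. Itgam encodes CD11b, which both gates required, Cx3cr1 and Zeb2 are genes of monocytes and macrophages as well, and Tbx21 encodes T-bet, which T cells use. Within SSMs, 2 of the 8 genes rose in tdLNs, Clec12a (1.55) and Zeb2 (1.31), against 4.19% of all genes over the mean count. These calls held in 1 and 2 of the 8 fits that left out a library.

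The rest of the Notch pathway was described from a list of 49 genes, of which 47 were tested and 39 were over the mean count. In ndLNs 7 were called higher and 5 lower in SSMs, against a background of 25.5% of all genes over the mean count, and in tdLNs 6 higher and 4 lower, against 18.3%. Over the whole list both counts were near the background. The medians were 0.31 and 0.19, beside 0.09 and 0.02 over all genes tested. Within SSMs 1 rose and 3 fell in tdLNs, against 6.4% of all genes (median -0.07, beside -0.04). Within MSMs edgeR's test called 0, with 8 at an unadjusted p-value under 0.05 and 3 called by DESeq2's Wald test (Dll1, Myc and Rbpj). For the interaction it called 0, with 9 at an unadjusted p-value under 0.05 and 5 by DESeq2's Wald test.

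Among the ligands, Dll1, a Delta-like ligand, was at 5944 and 8740 normalized counts in SSMs from ndLNs and 892 and 678 in SSMs from tdLNs. In MSMs it was at 157 and 157 in ndLNs and at 1.1 and 15 in tdLNs. SSMs were higher by 5.54 in ndLNs (edgeR adjusted p = 3.65e-05) and by 6.56 in tdLNs (edgeR adjusted p = 1.92e-04), both kept in every other fit. Within SSMs Dll1 fell by 3.20 on the log2 scale in tdLNs (edgeR adjusted p = 0.00168), a call lost without the SSM library of pool 2 from ndLNs or either SSM library from tdLNs (adjusted p up to 0.0415) and in the fit of the SSM libraries alone. Jag2, a Jagged ligand, was lower in SSMs in ndLNs (-1.77, edgeR adjusted p = 0.00967) and tdLNs (-2.59, edgeR adjusted p = 0.00316), and the ndLN call was lost in 6 of the 8 fits that left out a library (adjusted p up to 0.0613). The tdLN call was lost without any of the 4 tdLN libraries (adjusted p up to 0.0478).

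Among the genes that mature and cut the receptors, Furin, the protease of the first cut, was higher in SSMs in ndLNs (2.29) and tdLNs (1.55) and fell by 1.06 on the log2 scale in SSMs from tdLNs. The fall was lost in 6 of the 8 fits that left out a library, among them each without an SSM library (adjusted p up to 0.0796). Poglut1, which adds glucose to Notch, was lower in SSMs in both nodes (-1.50 and -1.79), lost without the MSM library of pool 1 from ndLNs (adjusted p = 0.0118) and without the SSM library of pool 1 from tdLNs (adjusted p = 0.0139) respectively. The gamma-secretase subunit Aph1c was at 186 and 146 normalized counts in SSMs from ndLNs, 879 and 734 in SSMs from tdLNs and 2968 to 3566 in MSMs, with subset differences of -4.40 and -2.01 and a rise of 2.28 in SSMs from tdLNs. The rise was lost without the SSM library of pool 2 from ndLNs or either from tdLNs (adjusted p up to 0.0388), and the tdLN subset call without the SSM library of pool 2 from tdLNs (adjusted p = 0.0114). Psen2 (0.93) and Aph1b (-1.65), also of gamma-secretase, were called in ndLNs in the main fit, and in none of the 8 fits that left out a library.

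In the nucleus, Rbpj, the DNA-binding partner of cut Notch, was at 609 to 789.7 normalized counts in the 4 SSM libraries and 1506 to 2772 in the 4 MSM libraries. It was lower in SSMs in ndLNs (-1.80, edgeR adjusted p = 2.18e-04) and tdLNs (-1.35, edgeR adjusted p = 0.00119), the former in every other fit. The tdLN call was lost without any of the 4 tdLN libraries (adjusted p up to 0.0278). Maml1, a Mastermind coactivator, was higher in SSMs in ndLNs (1.58), a call lost in all 8 fits that left out a library.

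Of the 4 target genes over the mean count, 3 were called higher in SSMs in ndLNs and 4 in tdLNs, against 12.7% and 10.9% of all such genes. Hey1 was at 706 and 1038 normalized counts in SSMs from ndLNs, 399.9 and 494 in SSMs from tdLNs, and 10.4 to 36 in MSMs. It was higher in SSMs in both nodes (5.04 and 4.84) in every fit. Il2ra (4.13 and 2.22) and Myc (1.58 in tdLNs) were higher in SSMs in both nodes, and Hes1 in tdLNs (1.75). Of the tdLN calls, that of Il2ra was lost without any of the 4 tdLN libraries (adjusted p up to 0.0381) and that of Hes1 in 5 of the 8 fits that left out a library (up to 0.0754). Myc was lost without either MSM library from ndLNs in the ndLN comparison (up to 0.0157) and without the library of pool 2 of either subset in tdLNs (up to 0.0117). Il2ra, the alpha chain of the interleukin 2 receptor and a gene of activated and regulatory T cells, fell by 1.97 on the log2 scale in SSMs from tdLNs, a call lost without any of the 4 SSM libraries (adjusted p up to 0.112). Of the 8 Notch regulators over the mean count, such as Numb and Itch, edgeR's test called 0 in each comparison. Between 0 and 3 of them had an unadjusted p-value under 0.05, and DESeq2's Wald test called between 0 and 2 (Dtx3 and Dtx3l). The targets that were higher in SSMs thus stood beside a lower Rbpj, and the T cell sums given above were higher in the same libraries, the part of which was not tested.

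**Figure D4:**
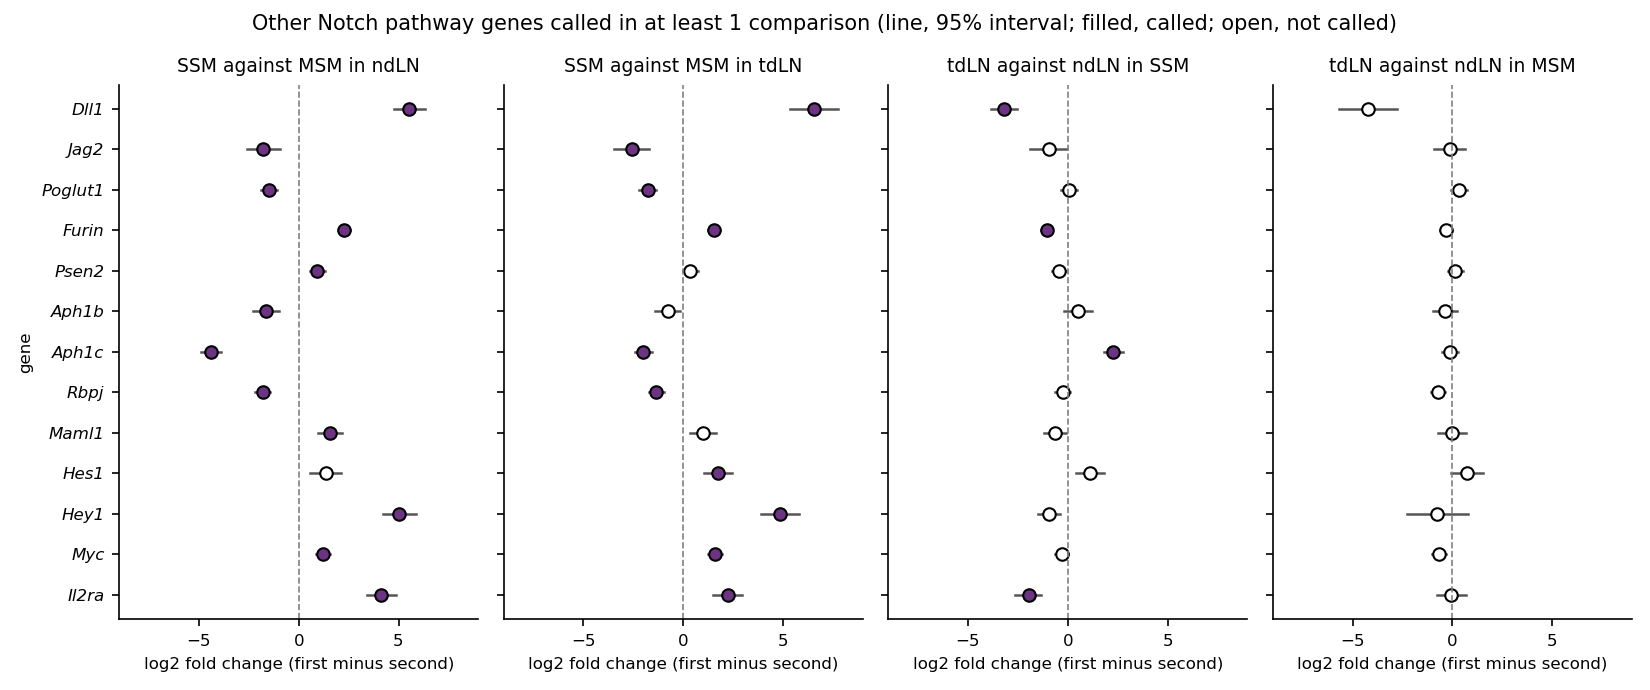
Log2 fold changes of the 13 other Notch pathway genes called in at least 1 comparison (horizontal axis), with lines for the 95% intervals, filled points for called and open points for not called. Dll1, Hey1 and Il2ra are higher and Jag2, Poglut1, Aph1c and Rbpj lower in SSMs in both nodes.

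The genes whose pattern over the 8 libraries was most like each of the 10 were found by Pearson's r of log2(normalized count + 1), among genes over the mean count. These values describe 8 libraries that share groups and pools. Notch4 was followed most closely by Scd1 (r = 0.998), a fatty acid desaturase, with mean normalized counts of 19.2 and 53.7 in SSMs and 1933 and 1608 in MSMs from ndLNs and tdLNs, and by Chac1 (0.997). Dtx1 was followed by Tmem71 (0.997) and Gm6637 (0.996), and Notch1 by Rabif (0.985) and Mr1 (0.984).

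Sirpa was followed by the matrix metalloprotease gene Mmp14 (r = 0.992), at means of 907 and 6028 in SSMs and 699 and 1536 in MSMs from ndLNs and tdLNs, and by Tlr1 (0.991). Mgl2 was followed by Vps26c (0.997) and Twf2 (0.987), Cd209a by Eps8 (0.987) and Vrk1 (0.984), and Clec10a by Fam118b (0.991) and Chid1 (0.978). The closest genes of Clec4a4 were Fam43a (0.975) and Ffar2 (0.966), and those of Irf4 were Prps1 (0.967) and Nop16 (0.944). Notch2, which hardly varied between groups, had the weakest likeness, with Disc1 (0.891) and Smim11 (0.890).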

How the data were processed

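RNA was converted to cDNA with a SMART-Seq v4 low-input kit and sequenced on an Illumina HiSeq. The authors aligned reads to GRCm38 (mm10) with STAR and deposited raw counts per gene for 16 samples (8 libraries on 2 lanes each). The submitters' processing notes also name Trimmomatic 0.36, bcl2fastq 2.20.0.422 and STAR 2.5.3a. The strand setting and the annotation version are not given in the sources used here. Of 55423 rows, 2 were added sequences and were left out, and 0 columns were unused. Symbols and coordinates came from GENCODE M21, matching 55240 IDs.

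The lane counts of each library agreed within sampling noise (chi-square per degree of freedom 0.955 to 1.02, against 29.3 to 53.1 between libraries of a group), so lanes were summed. Genes under 10 counts in total, or seen in fewer than 2 samples, were dropped. Counts were normalized by TMM (factors 0.902 to 1.15) and fitted across all 21085 genes with edgeR 4.0.16 (R 4.3.3), with group and pool as terms and all 8 libraries in the fit. The 5 contrasts used its quasi-likelihood test, adjusted after Benjamini and Hochberg. The scripts were tested on simulated data. A count of 3 corresponds to between 0.0623 and 0.0698 CPM, which covers counting error only.

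The pool was a block because the study's methods state that every pool gave all 4 kinds of cells. Deviations of same-numbered libraries from the group means correlated between -0.186 and 0.150 over 10000 genes. The methods count 4 pools, and the labels number 2, each on 2 lanes.

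The 10 genes, the gene lists and the marker lists were chosen with earlier results of these data known. Of the Notch pathway, other cDC2 and paralog lists, genes called in at least 1 contrast were named and the others counted, and for each of the 10 genes the 2 most alike genes with a mean normalized count over 100 were named. The genes named as background to a marker check were singled out after their values were seen. They were Siglec1, Clec9a, Cd8a, Ighm, Cd79b, Lyz2, Cd68, Mertk, Pecam1, Cdh5, Tek, Stab2, Kdr, Emcn, Cd47 and the dendritic cell lineage genes. The B cell, plasma cell and plasmacytoid dendritic cell lists are shown in the plot of marker sums.

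Alternatives were DESeq2 1.42.0 (a Wald test of libraries, and a likelihood ratio test that took lanes as samples), no block, DESeq2's size factors, no filter and filterByExpr, lanes 3 and 4 apart, a fit of the compared groups alone, an adjusted p under 0.05 and each library left out. Tables and plots were made in Python 3.11 with pandas 2.3.3 and matplotlib 3.10.9.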

Additional observations from a re-analysis of the deposited data

How the results depend on the processing

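With 2 libraries per group the number of the 10 genes called depended on the test, and the cause was not tested. Against 5 called between subsets in ndLNs, DESeq2's likelihood ratio test with lanes as samples, which takes lanes for replicates, called 8. Against 3 in tdLNs, 5 were called without the pool block (the replicate block), 5 at an adjusted p under 0.05, 5 on lane 3 alone and 7 by the likelihood ratio test. Between nodes in SSMs, against 3, DESeq2's Wald test called 5, the likelihood ratio test 6 and the fit of the compared groups alone 0. Against 0 in MSMs these DESeq2 tests called 2 and 3, and against 0 for the interaction 2 and 5. Without the block the counts were 5, 5, 4, 0 and 0. Leaving out 1 library gave 2 to 4 calls between subsets in ndLNs, 2 to 4 in tdLNs, 0 to 3 between nodes in SSMs, and 0 in MSMs and for the interaction. Log2 fold changes that crossed zero when a library was left out were all of genes not called. Those of Notch2 ranged from -0.44 to 0.17 between subsets in ndLNs, -0.35 to 0.37 in tdLNs, -0.34 to 0.27 between nodes in SSMs, -0.52 to 0.20 in MSMs and -0.22 to 0.49 for the interaction. In tdLNs Mgl2 ranged from -1.14 to 0.12 and Clec4a4 from -1.23 to 0.69 between subsets. Between nodes Irf4 ranged from -0.21 to 0.90 in SSMs and -0.84 to 0.30 in MSMs, and in MSMs Clec4a4 from -0.45 to 1.47 and Notch1 from -1.43 to 2.77. The interaction of Notch1 ranged from -3.25 to 0.95.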
